A study of Mus musculus with 6 samples.

Results

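The replication-dependent histone genes encode the core histones H2A, H2B, H3 and H4, around which DNA is wound in nucleosomes, and the linker histone H1, which binds between nucleosomes. They are chosen here as the protein-coding genes whose GENCODE M21 symbol starts with Hist1h, Hist2h, Hist3h or Hist4. The rule took 67 of the 55604 genes in the deposited count tables, and used no measured value. By type these were 6 H1 genes, 18 H2A, 18 H2B, 12 H3 and 13 H4. The libraries were made from brain RNA of C57BL/6 mice: 3 from animals given 4-aminopyridine (4-AP) by intraperitoneal injection, and 3 labelled NC and untreated. 4-AP blocks voltage-gated potassium channels, and the series' design text describes it as inducing status epilepticus, a state of prolonged seizure. RNA of both groups was digested with RNase R, an exonuclease that removes linear RNA, before the libraries were built. The labels do not give the brain region, age, sex, time after injection or a vehicle injection for the controls, nor do they say whether each sample was a separate animal, so the p-values measure the spread between these samples, which may be technical.

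In dividing cells these genes are switched on together in S phase, so that new histones match newly copied DNA. Most of their mRNAs have no introns and no poly(A) tail. They end instead in a short stem-loop that the stem-loop binding protein Slbp recognises and that directs 3′ end cleavage, translation and decay. Most brain cells are not dividing and replace their nucleosomes largely with variant histones such as H3.3, whose genes have introns and polyadenylated transcripts. Counts per gene do not tell linear RNA left by the digestion from circular RNA. Levels given here are those in digested RNA and need not be those in the tissue.

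The genes lie in clusters. On mm10, 54 members were on chromosome 13 between 21715763 and 23934851 (Hist1), 10 on chromosome 3 between 96219865 and 96270132 (Hist2), 2 on chromosome 11 between 58948920 and 58956830 (Hist3) and 1 on chromosome 6 at 136801553 to 136804415 (Hist4h4). In the annotation 62 of 67 had 1 exon in every transcript, and 5 had a transcript with more than 1 exon.

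The stem-loop distinguished H4 from the other types. It was searched in the first 100 annotated bases after the stop codon as 6 base pairs (G-T pairs allowed), the pair next to the loop being T and A, around a loop of TTTN, on the transcript strand. It was found in 44 members, at 21 to 58 bases from the stop codon. Where all 100 bases were annotated, it was found in 25 of 28 members and in 0.312% of 19219 other coding genes. Of the members without a match, 15 had no annotated base after the stop codon, so the search could not apply to them. Hist1h2bc, Hist2h2be and Hist1h4a had all 100 bases searched, and Hist1h3g 95, without a match. All 11 H4 genes with a stem-loop carried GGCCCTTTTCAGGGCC (7), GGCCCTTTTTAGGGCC (2) or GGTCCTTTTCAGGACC (2). Those of the H1, H2A, H2B and H3 genes were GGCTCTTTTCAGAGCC (26), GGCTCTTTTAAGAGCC (6) or GGCTCTTTTTAGAGCC (1). The following examples, from the GENCODE M21 transcripts and chosen to show each of these 6 forms, have the stem-loop in capitals and 5 flanking bases on each side.
Hist1h4h (H4): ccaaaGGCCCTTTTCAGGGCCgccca
Hist2h4 (H4): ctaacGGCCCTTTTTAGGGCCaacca
Hist1h4j (H4): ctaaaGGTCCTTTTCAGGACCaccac
Hist1h1c (H1): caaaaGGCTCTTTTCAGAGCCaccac
Hist1h3e (H3): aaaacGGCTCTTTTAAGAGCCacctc
Hist2h2ac (H2A): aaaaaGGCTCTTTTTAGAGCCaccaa

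The promoters also differed by type. RefSeq promoters (GRCm38.p6) matched 62 members by gene ID. In the 250 bases before the start, on either strand, the CCAAT box (CCAAT) was present in all 6 H1, 18 H2A and 16 H2B promoters and in 8 of 10 H3 promoters, but in 3 of 12 H4 promoters, against 34.46% of all 27025 genes in the table. The octamer ATTTGCAT, an element of histone H2B promoters bound by Oct-1 (Pou2f1), was in 7 of 18 H2A and 6 of 16 H2B promoters and in none of the H1, H3 and H4 promoters, against 1.61% of all. Some H2A and H2B genes lie on opposite strands with overlapping windows, so the same site can be counted for both types. Hist1h2ae and Hist1h2bg share an octamer in this way, as do Hist1h2ah and Hist1h2bk, and Hist1h2aa and Hist1h2ba. The motif AAACACA, the H1 box, was in 5 of 6 H1 promoters, 2 of 18 H2A and 2 of 16 H2B promoters and none of H3 or H4, against 6.22% of all. Hist1h2aa and Hist1h2ba share an H1 box site as well. TATAAA was in 46.8% of member promoters and 12.97% of all. No motif of the 4 contains another, and a match describes the window and shows no binding. The 150 bases before the start are printed for the most abundant H4 gene, for an H2B gene with the octamer, for the most abundant H1 gene and for Hist1h3i, the member that changed, with these motifs in capitals.
Hist1h4h, chr13:23530894-23531043, plus strand: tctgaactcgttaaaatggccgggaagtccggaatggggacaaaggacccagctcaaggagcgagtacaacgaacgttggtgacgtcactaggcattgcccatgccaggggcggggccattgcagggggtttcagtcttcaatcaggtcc
Hist1h2bg, chr13:23571250-23571399, plus strand: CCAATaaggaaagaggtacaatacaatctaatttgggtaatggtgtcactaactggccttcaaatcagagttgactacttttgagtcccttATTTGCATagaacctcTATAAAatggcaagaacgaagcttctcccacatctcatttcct
Hist1h1c, chr13:23738657-23738806, plus strand: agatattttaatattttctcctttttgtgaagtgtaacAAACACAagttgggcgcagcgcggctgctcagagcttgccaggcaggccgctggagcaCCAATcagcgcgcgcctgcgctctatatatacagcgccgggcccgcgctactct
Hist1h3i, chr13:21783398-21783547, minus strand: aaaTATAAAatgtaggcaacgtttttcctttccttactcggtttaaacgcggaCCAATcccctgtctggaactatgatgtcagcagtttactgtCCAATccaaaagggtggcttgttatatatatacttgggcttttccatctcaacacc
The printed Hist1h4h window held none of the 4 motifs, whereas the Hist1h2bg window held 3 of them: the CCAAT box, the octamer and TATAAA.

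Read counts cannot always be assigned to 1 of these genes. Coding sequences of the same length within a type were 85.44% to 100% identical between H4 genes and 93.63% to 99.75% between H3 genes. The coding sequences of Hist1h4m and Hist1h4n were identical, as were those of Hist2h2aa1 and Hist2h2aa2, of Hist1h2ao and Hist1h2ap, and of Hist1h2bq and Hist1h2br. For each member, the share of its 50-base stretches that also occur in a transcript of another gene, on either strand, ran from 0% to 100% with a median of 54.05%. The type medians were 1.12% for H1, 39.47% for H4, 46.94% for H2B, 61.98% for H3 and 73% for H2A. All 5 genes whose every stretch is shared (Hist2h2aa1, Hist2h2aa2, Hist2h2bb, Hist2h3b and Hist2h3c1) had 0 counts in each library. A zero for these says nothing about their RNA. Because copies can exchange reads, each type was also analysed as 1 summed count.

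All 18 H2A genes share exonic bases with another annotated gene, and 17 of them with a gene annotated as miRNA, of 129 to 144 bases, on the opposite strand. These 17 miRNA genes had 0 counts in all libraries together. The 21 members that share over 20% of their exonic bases with another gene had a median level of 1.03 CPM per kb of coding sequence. The 43 members that share none had a median of 108. CPM are read counts divided by the scaled library size in units of 1e+06 counts. Of the 21 members 16 were H2A genes, and 6 had 0 counts in all libraries. Of the 43 members 0 were H2A genes, so overlap and histone type cannot be told apart here. Whether reads falling on 2 genes were counted is not given in the sources used here, so the part of overlap in the low H2A counts was not tested. Levels of H2A are therefore given as the files hold them and are not read as the level of the RNA.

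H4 genes dominated the histone counts. Together the 67 members held 183951 counts over the 6 libraries, and H4 took 77.64% of these, H1 8.07%, H3 7.033%, H2B 6.245% and H2A 1.013%. The types differ in their shared 50-base stretches, with medians of 1.12% for H1, 39.47% for H4 and 73% for H2A. The rule for reads that map to several genes is not given, and a type sum does not restore reads left out. These are therefore shares of the deposited counts and need not be shares of the RNA. Per kb of coding sequence, over all 6 libraries, Hist1h4h averaged 8273 CPM, Hist1h4d 7637 and Hist1h4c 6500, the 3 highest members. Counts per gene can include annotated bases outside the coding sequence, so this measure favours genes with many such bases. Per kb of annotated exon the values were 5439 for Hist1h4h, 2074 for Hist1h4d and 2449 for Hist1h4c. The highest non-H4 members per coding kb were Hist1h3e at 885, Hist1h3f at 585, Hist3h2ba at 560.1 and Hist1h1c at 530.5. Per kb of annotated exon they were Hist1h3e at 431.8, Hist3h2ba at 344.8, Hist1h2bg at 249.6 and Hist1h1a at 232.6, with Hist1h3f at 189.3. The lowest was Hist1h4b among H4 genes, at 0.691 CPM per coding kb, with 56.2% of its exonic bases shared with an antisense gene. Ranked by CPM per kb of annotated exon among 10988 tested protein-coding genes, 7 of the 10 highest were H4 genes and 17 members were in the top 100, while the median coding gene was at 5.29. These are ranks in RNA digested with RNase R, and ranks in undigested RNA were not measured.

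**Figure D1:**
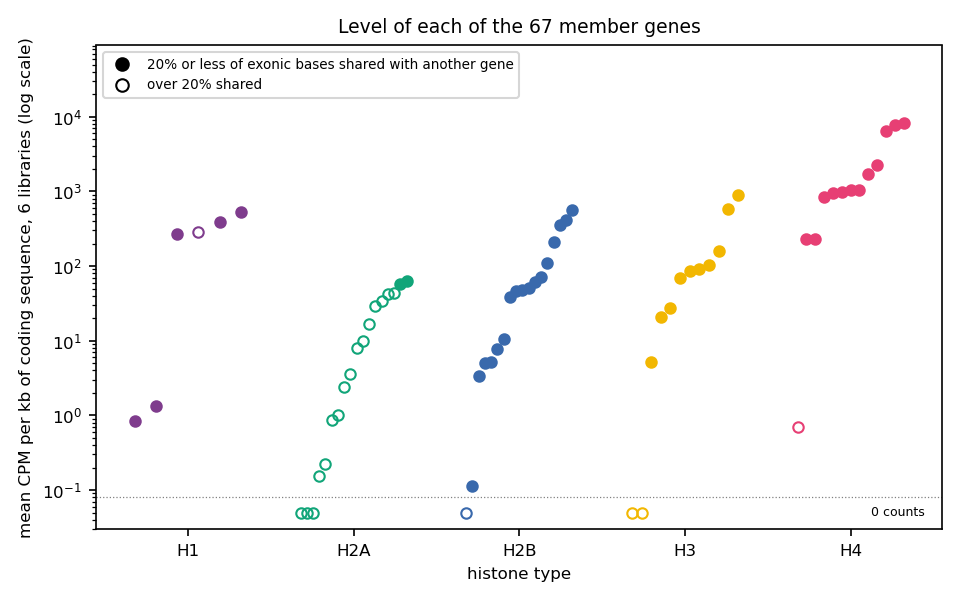
Mean CPM per kb of coding sequence over the 6 libraries (log axis) for each of the 67 member genes, grouped by histone type. The counts can include annotated bases outside the coding sequence. Open circles mark the 21 members that share over 20% of their exonic bases with another gene, and the 6 members below the dotted line had 0 counts. H4 genes reach 8273 and H2A genes 62.67.

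Histone RNA after 4-AP was then set against that of untreated mice. One gene, Hist1h3i, an H3 gene, fell, but the call was lost when any of 3 of the 6 libraries was left out, and 87.57% of its 50-base stretches occur in other genes. The mean H4 sums of the groups were close (9823 ± 1601 and 9717 ± 936.4 CPM, SD, n = 3 each), and the mean H1, H2B and H3 sums were lower after 4-AP by amounts that did not pass the test. Total counts were between 1507882 and 2828471 in 5 libraries and 3409055 in NC replicate 2. A count of 3 in a library corresponds to 0.778 to 2.19 CPM. Of all counts, members made up 1.182%, 1.091% and 1.072% after 4-AP against 1.302%, 1.429% and 1.308% in untreated mice, where the widest Wilson 95% interval, for 4-AP replicate 3, was 1.056% to 1.089% and covers counting error only. The groups do not overlap in this share, which has no correction for composition. After scaling by trimmed mean of M-values, which sets the bulk of genes to no change, the summed level of all members was 14180, 10610 and 11820 CPM in 4-AP and 11570, 12630 and 13750 CPM in control brain, and the groups overlapped. Means were 12200 ± 1813 and 12650 ± 1089 CPM (SD, n = 3 each), a ratio of 0.965. Scaling by total counts alone moved the median log2 fold change of all genes from -0.008 to -0.217, so directions here are relative to the bulk of genes. In bulk tissue, fewer cells of a type and less RNA per cell cannot be told apart.

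The 5 type sums were tested in the fit across all genes, in place of their members. None was called by the quasi-likelihood test of edgeR (Benjamini-Hochberg adjusted p under 0.05), nor by DESeq2 or limma-voom, where 0.846% of all rows were called by edgeR; at an unadjusted p under 0.05 there was 1, H1, which was lower, beside 7.57% of all genes lower. The H4 sum was 11460, 8258 and 9754 CPM after 4-AP against 9129, 9225 and 10800 CPM in untreated mice. The highest and the lowest value both belonged to 4-AP libraries. Its log2 fold change was 0.02 (SE 0.17; 95% interval -0.34 to 0.37; adjusted p = 0.982 by edgeR), and it was -0.20 when libraries were scaled by total counts alone.

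The sums of the other types had negative fold changes, under each of the scalings tried. For the H1 sum, 4-AP libraries had 941, 837 and 747.5 CPM and controls 893.5, 1229 and 1097, so that only NC replicate 1 lay within the 4-AP range. The H1 log2 fold change was -0.35 (SE 0.15; 95% interval -0.66 to -0.04; adjusted p = 0.281 by edgeR). The H3 sum was 821.1, 762.7 and 630.0 CPM against 760.2, 1110 and 885.2 CPM, which gave -0.32 on the log2 scale (SE 0.16; 95% interval -0.64 to 0.01; adjusted p = 0.373 by edgeR). For H2B the values were 821.7, 623.7 and 599.3 against 689.5, 931.3 and 838.4 CPM (log2 fold change -0.27, SE 0.15; adjusted p = 0.481 by edgeR). H2A, with 142.2, 129 and 75.19 against 103.7, 141.4 and 137 CPM, was at -0.13 (SE 0.20; adjusted p = 0.847 by edgeR). These 95% intervals are not adjusted for the number of rows tested. They include 0 for H2A, H2B, H3 and H4 but not for H1, which was not called after adjustment. Their lower ends were similar, at -0.55 for H2A, -0.59 for H2B, -0.64 for H3 and -0.66 for H1.

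**Figure D2:**
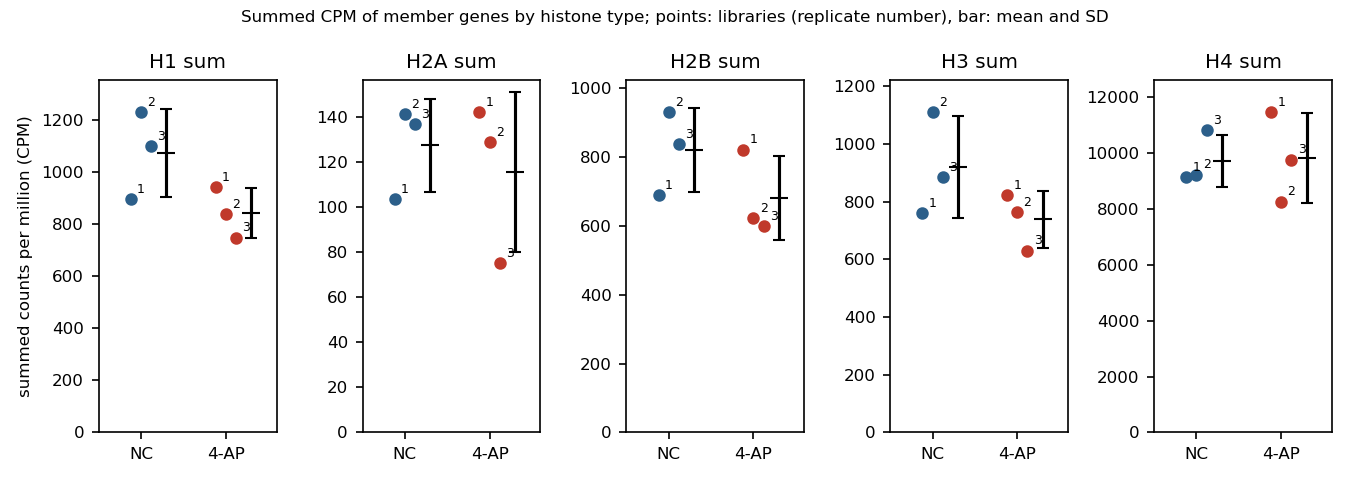
Summed CPM of the member genes of each histone type in each library (points, with the replicate number), with the mean and SD of each group (n = 3). The groups overlap for every type; NC replicate 2 is the highest library for H1, H2B and H3, and 4-AP replicate 3 the lowest.

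Single libraries set much of the spread of these sums. Relative to the geometric mean of the 6 libraries, NC replicate 2 was higher by 0.38 (H1), 0.33 (H2B) and 0.45 (H3) on the log2 scale, while its H4 sum was at -0.07. In 4-AP replicate 3 the values were -0.34 for H1, -0.31 for H2B, -0.37 for H3 and -0.66 for H2A, with H4 at 0.01. H1, H2B and H3 thus shared their highest and lowest libraries, and H4 had others, 4-AP replicate 1 (0.24) and 4-AP replicate 2 (-0.23). The ratio of H4 to all other member CPM was 4.20, 3.51 and 4.75 in 4-AP brain and 3.73, 2.70 and 3.65 in controls. These ratios overlap between the groups. Without NC replicate 2, the log2 fold changes were -0.22 for H1, -0.14 for H3 and -0.15 for H2B, and without 4-AP replicate 3 that of H2A turned from -0.13 to 0.09. The H4 sum, near 0 throughout, ranged from -0.11 without 4-AP replicate 1 to 0.15 without 4-AP replicate 2.

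Of the 67 members, 44 had enough counts to be tested one by one, and the 23 others held 0.186% of the member counts. Of the 44, 1 was lower and 0 were higher at an adjusted p under 0.05, where 0.843% of all 11388 genes tested were called, 0.509% lower and 0.334% higher. DESeq2 and limma-voom also called 0 higher and 1 lower, DESeq2 with an adjusted p for 27 members. At an unadjusted p under 0.05, 7 of the 44 members were lower and 0 higher. Of all 11388 genes, 862 were lower (7.57%) and 716 higher (6.29%). In 4 members all 3 4-AP libraries lay below all 3 controls and in 0 they lay above, beside 10.4% and 8.36% of all genes. Among 184 tested coding genes with 1 exon outside the list, these shares were 20.7% below and 5.98% above. The members' share below (9.09%) was thus near that of all genes. The median log2 fold change of the 44 was -0.24 and 35 lay below 0; over all genes the median was -0.01 and 51% lay below 0. Among the 184 other coding genes with 1 exon, the median was -0.12, 60.3% lay below 0, 4 were called lower and 2 higher. By type, 29 of 32 tested members other than H4 lay below 0 (median -0.34) and 6 of 12 H4 members did (median -0.001). Members of a type share sequence and libraries, so these counts describe the list and are not separate observations. Single libraries moved these medians: without NC replicate 2 they were -0.08 over all tested members and -0.12 over those other than H4, and without 4-AP replicate 1 they were -0.42 and -0.58. The count below 0 among the 32 to 35 non-H4 members tested without 1 library went from 24 of 33 without NC replicate 2 to 32 of 34 without 4-AP replicate 1.

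**Figure D3:**
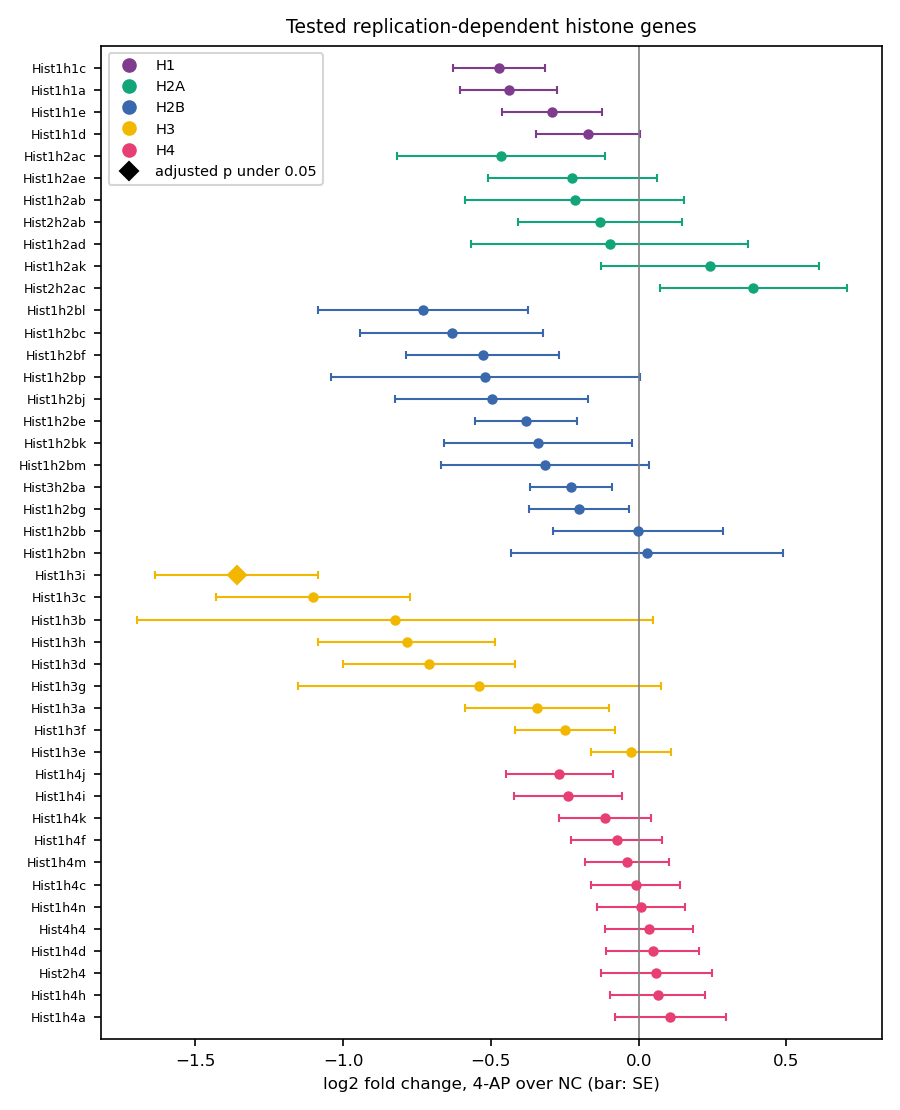
Log2 fold change of 4-AP over NC with its standard error for each of the 44 tested member genes, coloured by histone type and sorted within type. Hist1h3i, marked by a diamond, is the 1 gene with an adjusted p under 0.05, and the 12 H4 genes lie between -0.27 and 0.11.

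H4 genes encode the partner of H3 in the tetramer at the centre of the nucleosome, and none of the 12 tested passed. Hist1h4h (chromosome 13, 23531050 to 23531519, plus strand, 1 exon) was at 2936, 2140 and 2765 CPM in 4-AP and 2207, 2325 and 2966 CPM in control brain. Hist1h4d was at 2780, 1910 and 2504 against 2257, 2192 and 2515 CPM, and Hist1h4c at 2388, 1708 and 1908 against 1996, 1900 and 2151 CPM. In all 3 genes 4-AP replicate 2 was the lowest library, and the groups overlapped. Their log2 fold changes were 0.06 (SE 0.16), 0.05 (SE 0.16) and -0.01 (SE 0.15), and each changed sign between the fits without 4-AP replicate 1 (-0.03, -0.08 and -0.16) and without 4-AP replicate 2 (0.22, 0.21 and 0.12). The identical copies Hist1h4m and Hist1h4n had similar levels in each library, for example 316.8 CPM for both in 4-AP replicate 1 and 281.4 and 302.6 CPM in 4-AP replicate 3. Hist1h4j was the 1 H4 member whose groups did not overlap, at 69.1, 72.2 and 50.4 against 82.0, 77.8 and 72.7 CPM, and it did not pass (log2 fold change -0.27, SE 0.18; adjusted p = 0.563 by edgeR).

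H3 genes carried the 1 call. Hist1h3i (chromosome 13, 21782960 to 21783370, minus strand, 1 exon annotated as coding sequence and stop codon) was at 37.16, 49.67 and 19.74 CPM after 4-AP against 82.98, 123.7 and 74.97 CPM in untreated mice. Every 4-AP library was below every control. Its means were 35.52 ± 15.03 and 93.89 ± 26.14 CPM (SD, n = 3 each). On the log2 scale it changed by -1.36 (SE 0.28; adjusted p = 0.0333 by edgeR). The gene had 87.57% of its 50-base stretches in other genes, chiefly Hist1h3h, from whose coding sequence it differs at 4 of 408 bases. Its fall therefore cannot be assigned to this copy alone. It kept the direction when each library was left out, but lost the call without 4-AP replicate 1 (adjusted p = 0.132), 4-AP replicate 3 (0.0640) or NC replicate 2 (0.0874), all by edgeR; the value went from -1.69 without 4-AP replicate 2 to -1.09 without NC replicate 2.

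The other H3 genes did not pass the test. Hist1h3h, the closest copy named above, had 33.3, 24.7 and 19.0 CPM against 33.0, 67.2 and 30.8 CPM (log2 fold change -0.79, SE 0.30; adjusted p = 0.233 by edgeR). Here NC replicate 2 stood above the rest, and without it the value was -0.30. Hist1h3c, named after its values were seen, was at 21.5, 15.4 and 17.5 against 19.8, 56.5 and 38.4 CPM (-1.10, SE 0.33; adjusted p = 0.123 by edgeR). It was lower with adjusted p = 0.0084 by edgeR without NC replicate 1 and at -0.66 without NC replicate 2. The 2 most abundant H3 genes moved least: Hist1h3e was at 359, 377 and 337 against 327.5, 382.5 and 383 CPM (log2 fold change -0.03, SE 0.14), and Hist1h3f at 260.1, 212 and 183 against 207, 315 and 256 CPM (-0.25, SE 0.17; -0.39 without 4-AP replicate 1 and -0.07 without NC replicate 2). All 9 tested H3 genes lay below 0, with a median of -0.71. Hist1h3b and Hist1h3g had wide errors (SE 0.87 and 0.61), their 4-AP libraries ranging from 1.43 to 16.3 CPM and from 3.57 to 19.6 CPM.

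**Figure D4:**
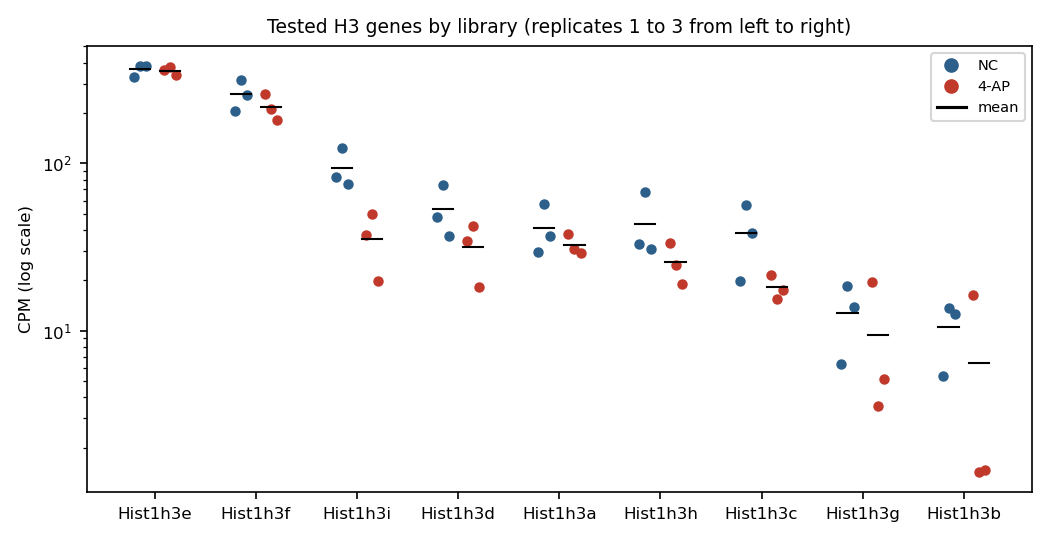
CPM (log axis) of the 9 tested H3 genes in each NC and 4-AP library, with group means as black lines. Only for Hist1h3i do all 3 4-AP libraries lie below all 3 controls among these genes; for Hist1h3c and Hist1h3h the highest value is NC replicate 2.

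H1 genes encode linker histones, which compact chromatin. All 4 tested lay below 0 and none passed. Hist1h1c (H1.2) was at 309.7, 303 and 233.9 CPM in 4-AP and 317.5, 442.5 and 417.7 CPM in control brain, without overlap (log2 fold change -0.47, SE 0.16; adjusted p = 0.147 by edgeR). With scaling by total counts alone it was called (-0.68; adjusted p = 0.0382 by edgeR). Hist1h1d was at 253.6, 238.3 and 235.4 against 183.9, 320.0 and 315.1 CPM (-0.17, SE 0.18; -0.38 without NC replicate 1 and -0.02 without NC replicate 2). Hist1h1e had 199.5, 157.2 and 152.8 against 224.4, 240.9 and 156.6 CPM (-0.29, SE 0.17; -0.46 without NC replicate 3 and -0.15 without NC replicate 2), and 25.7% of its exonic bases are shared with other genes, among them Hist1h2be. The germ cell linker histone gene Hist1h1t had at most 7 counts in a library, and Hist1h1b also at most 7.

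H2A and H2B form the dimers at the faces of the nucleosome. Of 12 tested H2B genes 11 lay below 0, from -0.73 (Hist1h2bl) to 0.03 (Hist1h2bn), and none passed. Hist3h2ba was the most abundant, at 191.7, 180.5 and 213.4 CPM against 231.3, 229.8 and 223.6 CPM. Its groups did not overlap, but the log2 fold change was small (-0.23, SE 0.14; adjusted p = 0.513 by edgeR). Hist1h2bg, whose promoter is printed above, was at 159.1, 145.1 and 125.7 against 126.4, 192.4 and 176.7 CPM (-0.20, SE 0.17; -0.36 without NC replicate 1 and -0.06 without NC replicate 2), and Hist1h2be at 136.3, 119 and 89.91 against 127, 166.8 and 157.1 CPM (-0.38, SE 0.17). NC replicate 1 fell within the 4-AP range for both. Of 18 H2A genes only 7 had enough counts to be tested; 5 lay below 0 and none passed. Hist1h2ac was at 28.7, 25.4 and 6.58 against 24.5, 36.05 and 25.4 CPM (-0.47, SE 0.35), and Hist1h2ae at 26.7, 24.7 and 10.2 against 22.9, 30.1 and 20.1 CPM (-0.22, SE 0.29). In both, 4-AP replicate 3 was far below the other libraries, and without it the values were -0.11 and 0.05. Hist2h2ac had the largest positive change of all members (0.39, SE 0.32), at 17.6, 21.1 and 16.8 against 13.2, 8.82 and 22.3 CPM, with overlapping groups; it was 0.12 without NC replicate 2 and 0.77 without NC replicate 3. The testis histone genes Hist1h2aa and Hist1h2ba had 0 and 1 counts over the 6 libraries, which for Hist1h2aa allows up to 0.778 to 2.19 CPM per library.

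Of the genes that act on histone mRNA none passed. Of the listed 21 factors for transcription, 3′ end processing and decay, 19 were matched and 15 tested, and 13 lay below 0 (median -0.15). By edgeR and limma-voom 0 were called, as by DESeq2 among the 4 to which it gave an adjusted p, and 1 was lower at an unadjusted p under 0.05, beside 7.57% of all genes. That was Eri1, the exonuclease that trims the stem-loop, at 3.26, 7.504 and 4.386 against 11, 10.89 and 7.587 CPM (log2 fold change -0.88, SE 0.41; adjusted p = 0.335 by edgeR). Npat, the activator of histone gene transcription at S phase, was at -0.37 (SE 0.28), the cleavage nuclease Cpsf3 at 0.37 (SE 0.23) and the octamer factor Pou2f1 at 0.32 (SE 0.24). The summed level of the 19 was 515 to 519 CPM after 4-AP and 532.5 to 576.6 CPM in untreated mice, without overlap. Sympk, named after its values were seen, was the most abundant of them, at 152.1 against 171.4 CPM on average. Taken singly, 2 of the 15 tested had every 4-AP library below every control (13.3%, beside 10.4% of all genes). Slbp, named as the stem-loop's binding protein and not by its values, was at 3.57 ± 1.03 against 5.01 ± 1.29 CPM (SD, n = 3 each; log2 fold change -0.56, SE 0.52).

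Variant histone genes lay on both sides of 0. One of those listed, H2afx, carries the stem-loop (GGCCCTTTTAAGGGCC) in its annotated transcript. Of 12 listed, 11 were matched and 10 tested; 4 lay below 0 and the median was 0.06. By edgeR and limma-voom 0 were called, as by DESeq2 among the 4 to which it gave an adjusted p, with 1 higher at an unadjusted p under 0.05, beside 6.29% of all genes. This was H2afy, which encodes macroH2A, at 56.7, 49.7 and 51.2 against 40.6, 36.05 and 32.1 CPM, without overlap (0.53, SE 0.20; adjusted p = 0.202 by edgeR). Of the H3.3 genes, H3f3a was at -0.33 (SE 0.22), without overlap, and H3f3b at 0.15 (SE 0.21); H2afv was at -0.55 (SE 0.47). The difference between variant and replication-dependent genes was not tested. Histone chaperones had 16 of 21 genes tested and 0 called by any of the 3 tools (DESeq2 over 10 of them). At an unadjusted p under 0.05, 3 of the 16 were lower (edgeR), beside 7.57% of all genes. Anp32e, which removes H2A.Z, was at -0.66 (SE 0.23; adjusted p = 0.170 by edgeR), Supt16 at -0.59 (SE 0.23), Rbbp7 at 0.35 (SE 0.22) and Npm1 at 0.33 (SE 0.24).

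Genes of S phase and division had low counts. Of 22 listed, 8 could be tested and 0 were called by edgeR or limma-voom, with 0 at an unadjusted p under 0.05; DESeq2 gave none of them an adjusted p. Their summed level was 68.45 to 73.83 CPM in 4-AP and 66.32 to 88.44 CPM in control libraries, and the groups overlapped. Mki67, a marker of cycling cells, had at most 13 counts in a library and Cdk1 at most 3. The 2 smallest p on each side were those of Mcm5 (-0.80, SE 0.54), Mcm7 (-0.41, SE 0.36), Pcna (0.36, SE 0.32) and Mcm4 (0.53, SE 0.47). Markers of neuroblasts and progenitors (6 genes) summed to 48.24 to 59.67 CPM against 47.31 to 69.51 CPM. Those of oligodendrocyte precursors (6 genes) summed to 263.9 to 332.3 CPM against 233.7 to 314.3 CPM. The groups also overlapped in the marker sums of astrocytes, oligodendrocytes, endothelium, blood, and ependyma and choroid plexus. All 6 neuronal markers were detected, as the brain label implies, and their sum was 1982 to 2366 CPM in 4-AP and 2442 to 2819 CPM in control libraries, without overlap. The 6 microglia markers summed to 440.8 to 542.8 against 366.8 to 430.8 CPM, also without overlap, but 3 of the 6 lay below 0. Cx3cr1, a chemokine receptor, made up most of that sum, at 374 against 252.4 CPM on average, while C1qa (-0.33), Tmem119 (-0.42) and Csf1r (-0.02) had negative log2 fold changes. By edgeR none of these neuronal and microglial markers was called, while DESeq2 called 2 neuronal markers lower and 1 microglial marker higher. The part of these sums in the values of Hist1h3i and the histone sums was not tested.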

How the data were processed

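RNA of 6 brain samples had been digested with RNase R before library construction, per the labels' protocols. The authors deposited whole-number read counts per gene. Per the submitters' processing notes, STAR 2.5.3a and featureCounts were used with mm10. No annotation release, strand setting, read length or rule for multi-mapping reads is given in the sources available for this work. Of 55604 identifiers, 54809 matched GENCODE M21 (mm10); the 795 others held 0.007% of counts.

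Genes passing filterByExpr (minimum count 10, minimum total 15; 11388 genes) were compared in edgeR 4.0.16 (R 4.3.3; robust quasi-likelihood fit, group only, scaling by trimmed mean of M-values), Benjamini-Hochberg adjustment over all genes and a threshold of 0.05. For type sums, 5 summed rows replaced the members and the table of 11349 rows was refitted. Standard errors come from the fold change and the F statistic. CPM are counts per scaled library size. Depth was 1507882 to 3409055 counts. No 2 libraries differed by as little as counting noise (lowest chi-square per degree of freedom 8.62, between 4-AP replicate 2 and NC replicate 3), so none was treated as a duplicate deposit; this does not show separate animals, and replicates are taken from the labels.

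The members and lists were chosen with earlier results of these data known. Genes named were called members, the 3 most abundant per type, the largest rise and fall, and up to 2 per direction of each other list; Slbp and members named beyond this rule, for a sequence, an overlap, a range or a spread (Hist1h3b, c, g and h, Hist1h4b, j, m and n, Hist2h4, Hist4h4 and others), were chosen after their values were seen. Alternatives were other scalings, filters, DESeq2 1.42.0, limma 3.58.1 (voom), the replicate number as a block, and each library left out.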

Additional observations from a re-analysis of the deposited data

How the results depend on the processing

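None of the 5 type sums passed in any of up to 18 alternatives, the lowest adjusted p being 0.0829 (edgeR, H1, total counts only); H1, H2B and H3 kept a negative sign in all of them, while H2A and H4 changed sign in some. The count of histone genes called lower was 1 in most settings, 3 with total counts only (Hist1h3i, Hist1h3c and Hist1h1c) and 3 with no filter on low counts (Hist1h3i, Hist1h3c and Hist1h3h), and 0 to 2 when 1 library was left out; 0 were called higher in any. Over all genes, 38 higher and 58 lower became 26 and 293 with total counts only, 80 and 99 with DESeq2, 131 and 197 with no filter, 25 and 30 with no robust fit, and 121 and 169 at an adjusted p under 0.1. Leaving out 1 library gave 16 to 105 higher and 10 to 54 lower. With the replicate number as a block there were 112 higher and 153 lower, and the same histone gene, Hist1h3i, was called. The design text calls the tissues paired without saying what a pair shares, so the main fit used no block. In their deviations, libraries with the same number correlated by -0.002, 0.113 and 0.025, and those with different numbers by -0.101 to 0.064. So few values cannot decide whether the numbers are pairs. Of 526 values of the 31 named genes, 522 kept their side of the threshold. Only Hist1h3i was called in the main fit, so for the other named genes this means staying uncalled. Hist1h3i kept its call in 14 of 17 alternatives. The 4 values that changed were Hist1h1c with total counts only and Hist1h3i without 3 single libraries. The cause was not tested. An H2A sum without overlapping genes could not be formed, since every H2A gene overlaps another. Low counts limit the H2A genes and 23 untested members.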

Other observations

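The pseudogene Hist3h2bb-ps, next to Hist3h2ba on chromosome 11 and outside the member rule because it is annotated as a processed pseudogene, had 34, 55 and 39 counts after 4-AP against 87, 110 and 52 in untreated mice, before any scaling. Its coding neighbour Hist3h2ba had 294, 505 and 292 counts against 736, 886 and 501, also unscaled. Depth was unequal, with totals from 1507882 to 2721287 counts after 4-AP but from 2355610 to 3409055 without it. Raw counts therefore differ partly by depth, and no change is read from them. Once scaled, Hist3h2ba was at 191.7, 180.5 and 213.4 against 231.3, 229.8 and 223.6 CPM. Of the 50-base stretches of Hist3h2ba, 22.12% also occur in another gene, chiefly Hist3h2bb-ps. The pseudogenes Hist1h2aj and Hist1h2al had 0 and 1 counts in all libraries together.

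Hist1h4b stands out among the H4 genes: it had 3 counts over the 6 libraries, while each of the 12 others had at least 1100. It shares 56.2% of its exonic bases with the antisense gene 4930558J22Rik, which had 0 counts, and 75.86% of its 50-base stretches occur in other genes. The H4 genes with the smallest share of such stretches were Hist2h4 (1.01%), Hist4h4 (8.52%) and Hist1h4d (10.19%). Their log2 fold changes were 0.06 (SE 0.19), 0.04 (SE 0.15) and 0.05 (SE 0.16), beside 0.02 (SE 0.17) for the H4 sum. All 3 changed sign when single libraries were left out, as the H4 sum did.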
